A study of Arabidopsis thaliana with 8 samples.

Results

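UDP-glycosyltransferases (UGTs) were measured by 47 probe sets, 1 for each of 47 genes, out of 22746 probe sets tested on Arabidopsis thaliana arrays. A member is a probe set of a single gene whose symbol starts with UGT and a digit, with platform names brought up to date from a RefSeq gene list (assembly TAIR10.1) through each gene's ID. That list holds 58 genes with such a symbol, and the remaining 11 have no probe set of their own in the annotation used and are not analysed here. The members fall into 11 families by the number in their names, with 9 genes in family 71, 8 in 76, 7 in 73, 5 each in 84 and 85, 4 in 72, 3 each in 74 and 78, and 1 each in 80, 87 and 88.

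UGTs transfer a sugar from an activated donor, most often UDP-glucose, to a small molecule. Their acceptors include auxin, cytokinin, abscisic acid and salicylic acid, phenylpropanoids and flavonoids, glucosinolate precursors, sterols and foreign compounds. The added sugar usually makes the acceptor more soluble and less active and allows its storage in the vacuole, so UGTs are known both for setting hormone levels and for detoxification.

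The 4 groups were hira protoplasts, hira roots, wild-type (WT) protoplasts and WT roots, with 2 single-channel Affymetrix arrays in each. Protoplasts are cells freed from their walls by enzymes, here from root tissue, and hira plants are altered in HIRA, a chaperone for the histone variant H3.3. The labels name no hira allele and give no plant age beyond growth on upright MS plates after cold treatment of the seeds. Digestion with enzymes is named for the roots as for the protoplasts, so whether roots met the enzymes is not settled by the labels. Whether the 2 replicates of a group came from different plants is not said, so the spread behind each p-value may be technical.

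Deposited values are log2 values that are centred on each probe set's median over the 8 arrays. A value of 0 is therefore the middle of a gene's own 8 values, differences between arrays are kept, and the level of a gene, or its order among genes, cannot be read. Changes below are log2 differences with the standard error (SE) of a limma fit to all 8 arrays, and a probe set was called at an adjusted p under 0.05 over all 22746 probe sets (Benjamini-Hochberg, two-sided). In these bulk samples fewer cells of a type and less RNA per cell cannot be told apart.

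For the GAPDH control, the 5′ probe set minus the 3′ one gave -0.091 ± 0.009 in hira protoplasts and 0.036 ± 0.12 in hira roots. In WT this difference was 0.62 ± 0.19 in protoplasts and -2.22 ± 0.035 in roots (log2, SD, n = 2 each). Both control probe sets are centred on their own medians, so these differences only compare arrays with each other. A value near 0 does not show intact RNA, and a negative one does not show a loss at the 5′ end. The actin control likewise had its highest difference in WT protoplasts, 1.52 ± 0.32, and its lowest in WT roots, -1.81 ± 0.47. The SD of the difference between replicates over the 47 UGTs was 0.41 in hira protoplasts and 0.70 in hira roots, and 1.14 in WT protoplasts and 0.76 in WT roots. The part of RNA quality in the UGT values was not tested. The labelled tissues could not be checked by marker levels, which centred values do not keep. Few markers were named in the annotation used: 2 of 6 of endodermis and cortex and 2 of 7 of epidermis and root hairs. Of the stele 1 of 7 was named, of the cap and stem cell niche 1 of 6, and of green tissue 1 of 6. The others may lie on probe sets without a gene name or shared by several genes. The 2 root hair expansin genes differed in sign between the genotypes, EXPA18 at -4.32 (SE 0.90, adjusted p = 0.0299) in hira and 1.25 (SE 0.90, adjusted p = 0.344) in WT, and EXPA7 at -2.85 in hira and 1.86 in WT, without a call for EXPA7. The stele gene LHW was at -0.99 (SE 0.41, adjusted p = 0.156) in hira and fell in WT, at -1.84 (SE 0.41, adjusted p = 0.0335), and the stem cell niche gene BBM was at -0.49 (SE 0.38, adjusted p = 0.435) in hira and fell in WT, at -2.34 (SE 0.38, adjusted p = 0.0145). The cortex gene CO2 (AT1G62500) fell in hira, at -0.27 (SE 0.03, adjusted p = 0.0064), with 0.0026 in WT, the endodermis and cortex list's other gene, AT1G09750, was at -1.94 in hira and 0.02 in WT, and the green-tissue gene RCA was at -0.66 and 0.12, neither of them called. The part of cell type makeup in the UGT values was not tested.

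UGT genes were called higher in protoplasts more often than lower, in both genotypes. In hira protoplasts 13 of 47 members rose against hira roots and 3 fell, or 34.0% called, beside 24.2% of all probe sets, with 12.0% rising and 12.2% falling. In WT protoplasts 13 rose against WT roots and 2 fell, or 31.9% called, beside 25.6% of all probe sets, with 11.7% rising and 13.9% falling. The members called higher were thus 27.7% of the UGTs in each genotype. With a change of at least 2-fold as well, 12 members rose in each genotype, or 25.5%, beside 9.12% of all probe sets in hira and 8.95% in WT. The median UGT change was -0.004 in hira and 0.23 in WT, beside -0.02 in hira and 0.034 in WT over all probe sets. In all, 20 members were called in at least 1 of the 5 comparisons, or 42.6%, beside 38.9% of all probe sets.

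**Figure D1:**
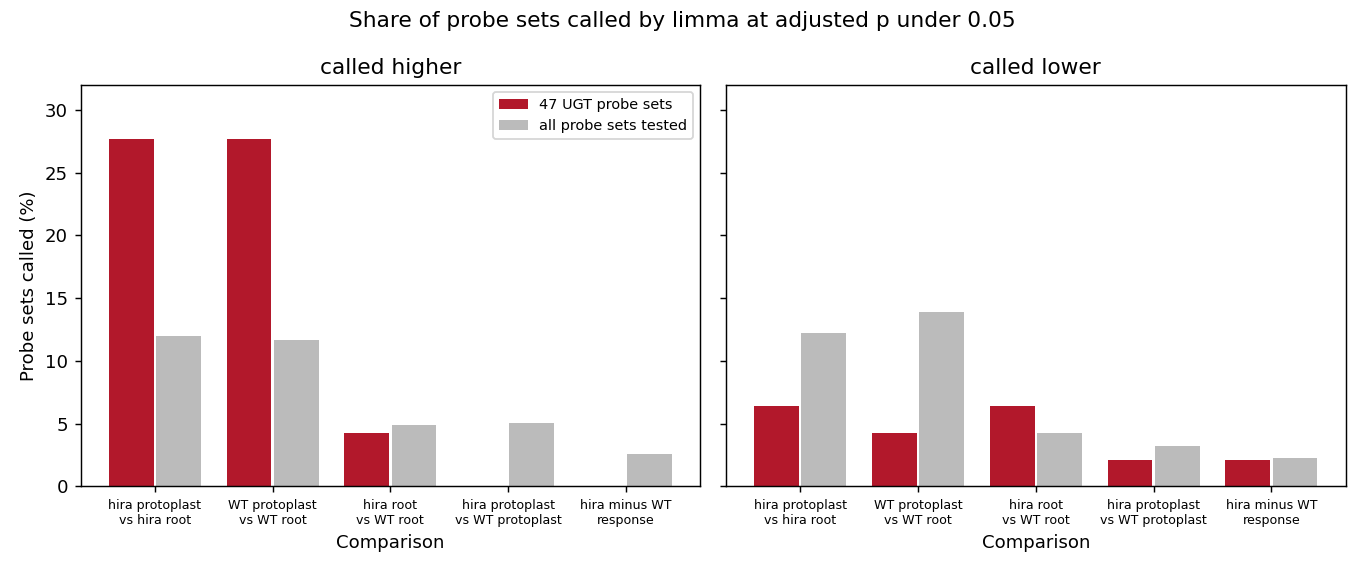
Percentage of probe sets called higher (left) or lower (right) in each of the 5 comparisons, for the 47 UGT probe sets (red) and all 22746 probe sets (grey). In both protoplast against root comparisons 27.7% of the UGTs were called higher, against 12.0% (hira) and 11.7% (WT) of all probe sets, and a smaller share of the UGTs than of all probe sets was called lower.

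Of the 47 members 11 were called higher in both genotypes, or 23.4%, beside 6.10% of all probe sets. These 11 are 84.6% of the 13 called higher in hira and 84.6% of the 13 in WT, where the same shares over all probe sets were 50.9% in hira and 52.2% in WT. The genotypes' protoplast against root comparisons share no arrays, although the fit gives both the same spread for a probe set. The 11 genes were UGT71B1, UGT71B6, UGT71C5, UGT73B4, UGT73C7, UGT73D1, UGT74F1, UGT76B1, UGT76E12, UGT85A4 and UGT87A2. UGT71B5 and UGT73B5 were called higher in hira and not in WT, and UGT71C1 and UGT71C2 in WT and not in hira; of these 4 the difference of the responses was called for UGT71C2. UGT80B1 and UGT88A1 fell in both genotypes, which makes 2 of 47 members beside 6.62% of all probe sets. No member was called in opposite directions (limma), as were 0.528% of all probe sets; at an unadjusted p under 0.05 there were 19 members in hira, where 36.9% of all probe sets were, and 23 in WT, where 39.5% were. In hira both protoplast arrays lay above both root arrays for 21 members and below them for 18, which 27.7% and 53.5% of all probe sets did. In WT they lay above for 32 and below for 5, beside 50.1% and 26.8% of all probe sets, so non-overlap is common on these arrays and is given below only as a description.

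**Figure D2:**
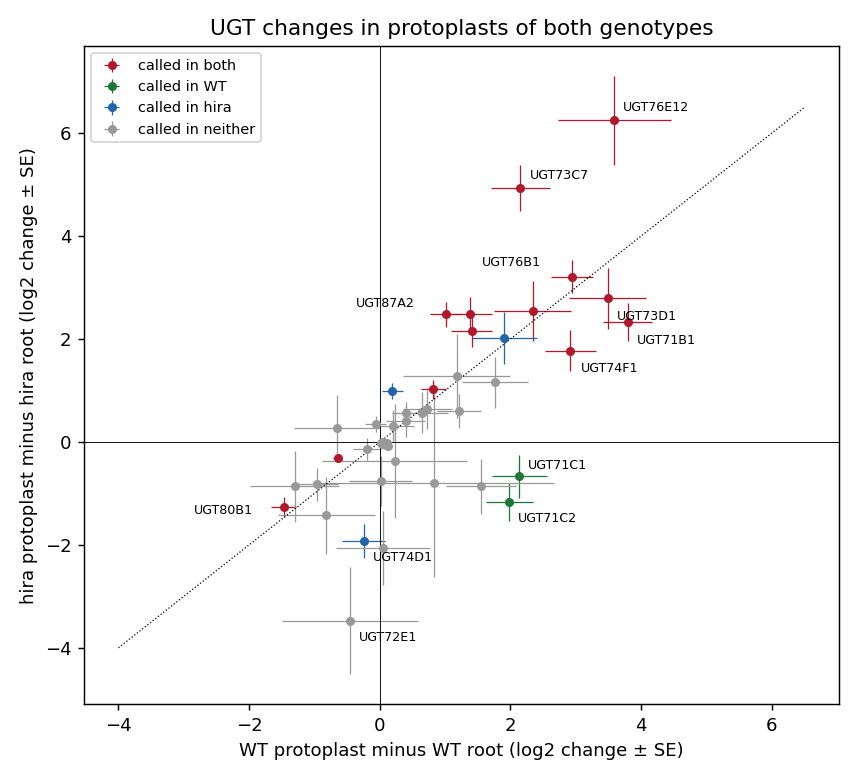
Each point is 1 of the 47 UGT genes, with its log2 change in WT protoplasts against WT roots on the horizontal axis and in hira protoplasts against hira roots on the vertical axis, both with the SE of the fit. The dotted line marks equal change. The 11 genes called higher in both genotypes lie in the upper right, with UGT76E12 at 6.25 in hira and 3.59 in WT, and UGT71C1 and UGT71C2 lie at the lower right, above 0 in WT and below 0 in hira.

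UGT76B1 and UGT74F1 rose in both genotypes. UGT76B1 (AT3G11340), which in Arabidopsis glucosylates isoleucic acid, salicylic acid and N-hydroxypipecolic acid, had values of 1.32 and 1.21 in hira protoplasts, against -2.21 and -1.67 in hira roots. In WT protoplasts they were 1.99 and 1.23, against -1.21 and -1.46 in WT roots. All 4 protoplast arrays lay above all 4 root arrays and the genotypes were close to each other. The change was 3.21 (SE 0.32, adjusted p = 0.00485) in hira and 2.95 (SE 0.32, adjusted p = 0.00544) in WT, with a difference between genotypes of 0.26 (SE 0.45, adjusted p = 0.697). UGT74F1 (AT2G43840), which forms salicylic acid glucoside, stood at 1.43 and 0.70 in hira protoplasts, against -0.70 and -0.72 in hira roots. Its WT values were 2.10 and 1.13 in protoplasts, against -1.36 and -1.25 in roots. The groups did not overlap in either genotype, and the change was 1.78 (SE 0.39, adjusted p = 0.0355) in hira and 2.92 (SE 0.39, adjusted p = 0.0091) in WT.

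UGT71B6 and UGT71C5 rose in both genotypes. UGT71B6 (AT3G21780), which glucosylates abscisic acid, was at 1.82 and 2.03 in hira protoplasts and -0.71 and -0.52 in hira roots, and at 2.22 and 0.52 in WT protoplasts and -1.25 and -0.69 in WT roots. The WT protoplast arrays differed from each other by more than the WT root arrays did. It changed by 2.54 (SE 0.59, adjusted p = 0.0392) in hira and by 2.34 (SE 0.59, adjusted p = 0.0469) in WT. UGT71C5 (AT1G07240), likewise an abscisic acid glucosyltransferase, had 0.054 and 0.11 in hira protoplasts, against -1.03 and -0.85 in hira roots. The corresponding WT values were 0.46 and 0.54 in protoplasts, against -0.054 and -0.60 in roots. The groups were apart in both genotypes, but its change was small, 1.02 (SE 0.19, adjusted p = 0.0222) in hira and 0.82 (SE 0.19, adjusted p = 0.0375) in WT. UGT71B8 and UGT73B1, which have also been linked to abscisic acid, were not called in either genotype: UGT71B8 ranged over only 0.14 across all 8 arrays, and UGT73B1 changed by 0.57 in hira and 0.64 in WT.

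Family 76 held the largest change of any member. UGT76E12 (AT3G46660) had values of 3.22 and 2.87 in hira protoplasts, against -3.23 and -3.19 in hira roots. Its WT values were 0.86 and 2.76 in protoplasts, against -0.86 and -2.69 in roots. The hira arrays agreed closely within each group, while the WT replicates were far apart in both groups. The rise was 6.25 (SE 0.86, adjusted p = 0.0105) in hira and 3.59 (SE 0.86, adjusted p = 0.0423) in WT, and the difference between genotypes, 2.66 (SE 1.22, adjusted p = 0.238), did not pass. Its subfamily relatives differed from it: UGT76E11 was at 0.63 in hira and 0.73 in WT, UGT76E2 at -0.14 and -0.20, and UGT76E1, which in Arabidopsis glucosylates hydroxylated jasmonate, ranged over 0.17 in all. None of these 3 was called in any comparison.

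UGT76C1, UGT76C2 and UGT76D1 were not called in any comparison. UGT76C1 and UGT76C2, which form cytokinin N-glucosides, had every protoplast array above every root array of the same genotype. The changes of UGT76C1 were 0.60 (SE 0.33, adjusted p = 0.279) in hira and 1.22 (SE 0.33, adjusted p = 0.0584) in WT, and those of UGT76C2 were 1.16 (SE 0.50, adjusted p = 0.175) and 1.76 (SE 0.50, adjusted p = 0.0649). UGT76D1 (AT2G26480), which glycosylates dihydroxybenzoic acids, had the widest range of all members, 7.72. It stood at -1.43 and -1.78 in hira protoplasts, -1.20 and -0.41 in hira roots, 0.41 and 5.95 in WT protoplasts and 2.02 and 2.67 in WT roots. Both hira groups lay below both WT groups on every array, but 1 WT protoplast array was far above the other, and the genotype difference of -4.78 (SE 1.83, adjusted p = 0.163) in protoplasts and -3.15 (SE 1.83, adjusted p = 0.389) in roots was not called.

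In family 73, 4 of 7 members rose in hira and 3 in WT. UGT73C7 (AT3G53160), which acts on hydroxycinnamic acids, had values of 1.21 and 1.32 in hira protoplasts, against -3.14 and -4.18 in hira roots. In WT they were 1.73 and 0.84 in protoplasts, against -0.84 and -0.91 in roots. The protoplasts of the genotypes overlapped, and hira roots were the lowest group. The rise was 4.93 (SE 0.45, adjusted p = 0.00407) in hira and 2.15 (SE 0.45, adjusted p = 0.0283) in WT, and hira roots were lower than WT roots at -2.79 (SE 0.45, adjusted p = 0.0322). UGT73D1 (AT3G53150) had 0.56 and 0.84 in hira protoplasts, against -1.84 and -2.35 in hira roots, and 3.64 and 1.95 in WT protoplasts, against -0.56 and -0.82 in WT roots. Its values in both hira groups were below those of the matching WT group, at -2.10 (SE 0.59, adjusted p = 0.0948) in protoplasts and -1.40 (SE 0.59, adjusted p = 0.227) in roots, neither of which passed. The rises were 2.79 (SE 0.59, adjusted p = 0.0307) in hira and 3.49 (SE 0.59, adjusted p = 0.0161) in WT.

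UGT73B4 (AT2G15490), known for conjugating products of the explosive TNT, rose in both genotypes. It was at 0.76 and 0.98 in hira protoplasts, against -1.43 and -1.80 in hira roots, and at 1.31 and 0.41 in WT protoplasts, against -0.41 and -0.63 in WT roots. Root and protoplast arrays were apart in both genotypes, with changes of 2.48 (SE 0.33, adjusted p = 0.00984) in hira and 1.38 (SE 0.33, adjusted p = 0.0429) in WT. UGT73B5 (AT2G15480), linked to redox status in pathogen responses, had 0.65 and 0.85 in hira protoplasts, against -1.17 and -1.38 in hira roots, and 1.50 and 0.42 in WT protoplasts, against -0.42 and -1.48 in WT roots. Its change of 2.02 (SE 0.50, adjusted p = 0.0469) in hira was called, and that of 1.91 (SE 0.50, adjusted p = 0.0526) in WT missed the threshold. UGT73B1 (AT4G34138) did not respond to protoplast formation past the threshold, at 0.57 in hira and 0.64 in WT, but differed between genotypes. Its values were 1.12 and 1.37 in hira protoplasts, against -0.81 and -0.62 in WT protoplasts, and 0.62 and 0.73 in hira roots, against -0.76 and -1.95 in WT roots. All 4 hira arrays were above all 4 WT arrays, with 2.03 (SE 0.40, adjusted p = 0.0498) in roots and 1.96 (SE 0.40, adjusted p = 0.0548) in protoplasts, so that roots alone passed by a narrow margin. UGT73C1, which conjugates TNT products and cytokinins, and UGT73C2 ranged over only 0.074 and 0.23.

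Family 71 held 4 members that rose in hira and 5 in WT. UGT71B1 (AT3G21750) had values of 1.36 and 1.26 in hira protoplasts, against -0.92 and -1.11 in hira roots. In WT protoplasts it had 2.04 and 0.92, against -2.27 and -2.35 in WT roots. The protoplasts of both genotypes overlapped, WT roots were the lowest group, and the rise was 2.33 (SE 0.37, adjusted p = 0.0151) in hira and 3.80 (SE 0.37, adjusted p = 0.0043) in WT. UGT71B5 (AT4G15280) rose in hira by 0.99 (SE 0.16, adjusted p = 0.0151), with 0.19 in WT. UGT71C3, reported to glucosylate methyl salicylate, was lower on every protoplast array than on every root array of its genotype, at -0.82 (SE 0.32, adjusted p = 0.137) in hira and -0.96 (SE 0.32, adjusted p = 0.0932) in WT, without passing. UGT71C4 was at 0.31 in hira and 0.20 in WT.

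UGT71C1 and UGT71C2, which lie side by side in gene order, were called in WT and not in hira. UGT71C1 (AT2G29750) had 0.14 and -0.85 in hira protoplasts, against -0.062 and 0.68 in hira roots, and 0.36 and 0.062 in WT protoplasts, against -1.83 and -2.02 in WT roots. The WT root arrays stood alone at the low end, and the other 3 groups overlapped. The change was -0.66 (SE 0.42, adjusted p = 0.334) in hira and 2.14 (SE 0.42, adjusted p = 0.024) in WT, hira roots were higher than WT roots by 2.24 (SE 0.42, adjusted p = 0.0442), and the difference between the responses, -2.80 (SE 0.59, adjusted p = 0.0697), did not pass. UGT71C2 (AT2G29740) had -0.37 and -0.51 in hira protoplasts, against 0.37 and 1.09 in hira roots, and 1.37 and 0.76 in WT protoplasts, against -0.63 and -1.21 in WT roots. Protoplasts were below roots in hira and above them in WT, without overlap. The change was -1.17 (SE 0.36, adjusted p = 0.0826) in hira and 1.98 (SE 0.36, adjusted p = 0.0199) in WT, and the difference between the responses was -3.15 (SE 0.51, adjusted p = 0.0471), the single UGT call in that test, where 4.87% of all probe sets were called, 2.61% higher and 2.26% lower. The call did not hold without WT root replicate 2, either WT protoplast array, hira root replicate 2 or either hira protoplast array, with adjusted p up to 0.163 over the alternatives.

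**Figure D3:**
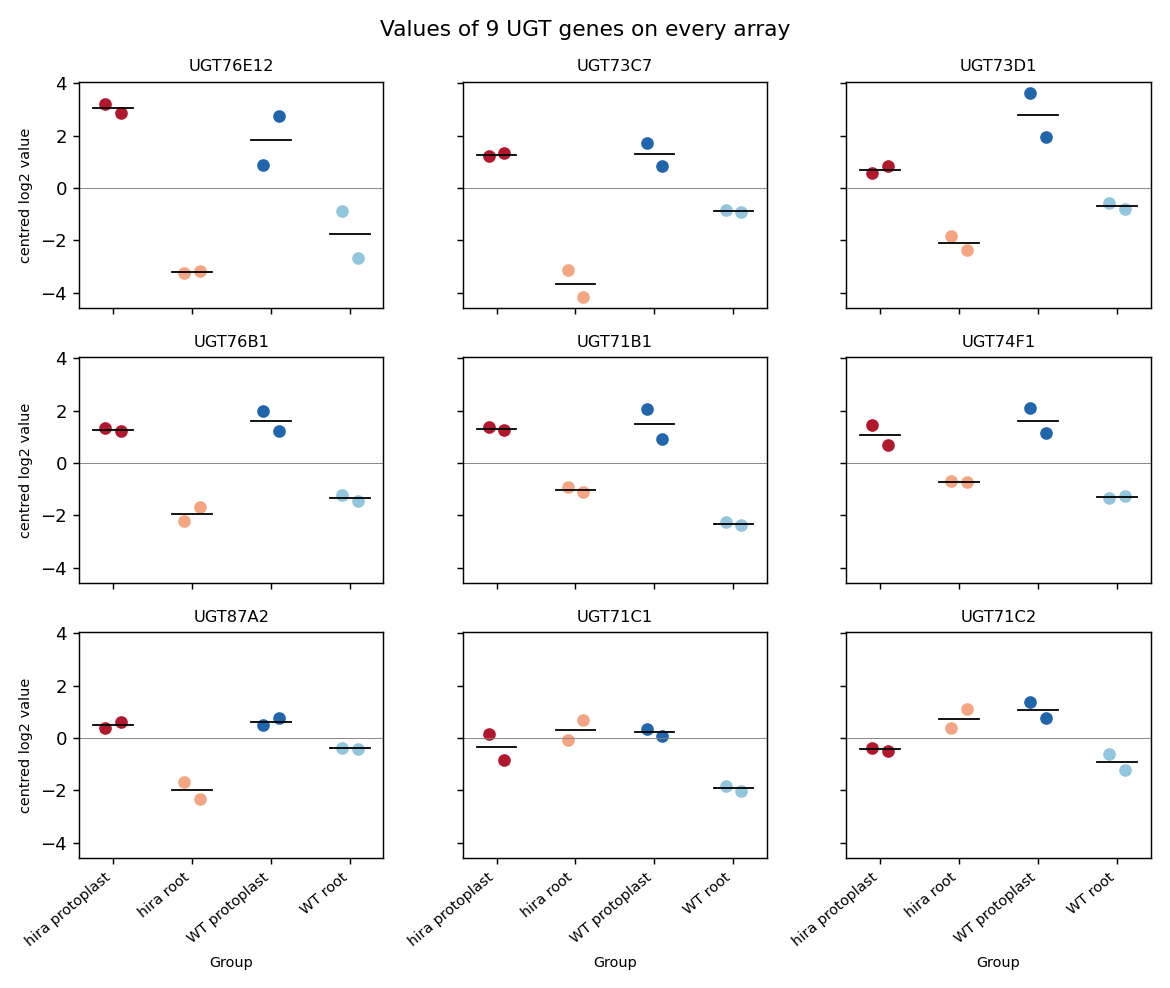
Centred log2 values of 9 UGT genes, with a point for each array and a bar at the group mean, in hira protoplasts, hira roots, WT protoplasts and WT roots from left to right. In UGT76E12, UGT73C7, UGT73D1, UGT76B1, UGT71B1, UGT74F1 and UGT87A2 the protoplast arrays lie above the root arrays in each genotype, while UGT71C2 runs in opposite directions in hira and WT.

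UGT74D1 (AT2G31750), which glucosylates auxin and its oxidised form, fell in hira. It had -0.024 and -0.66 in hira protoplasts, against 1.60 and 1.55 in hira roots, and 0.024 and -0.45 in WT protoplasts, against 0.34 and -0.28 in WT roots. The hira root arrays were above the other 6, and the change was -1.92 (SE 0.33, adjusted p = 0.0177) in hira and -0.24 (SE 0.33, adjusted p = 0.591) in WT, with a difference between the responses of -1.68 (SE 0.46, adjusted p = 0.107). UGT84B1, an auxin glucosyltransferase, and its neighbour UGT84B2 ranged over only 0.046 and 0.086, the narrowest range of any member being that of UGT84B1.

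The members of families 72, 78 and 84, and UGT74B1, were not called in any comparison. UGT72E1, UGT72E2 and UGT72E3 glucosylate monolignols and related aldehydes. UGT72E1 (AT3G50740) had -0.12 and -0.36 in hira protoplasts, against 3.42 and 3.06 in hira roots, and 0.11 and -0.11 in WT protoplasts, against 2.04 and -1.13 in WT roots. The hira roots were the highest group, but the WT root replicates lay more than 3 log2 units apart, and the changes were -3.47 (SE 1.04, adjusted p = 0.0758) in hira and -0.45 (SE 1.04, adjusted p = 0.756) in WT. UGT72E3 was likewise highest in hira roots, at 0.66 and 2.78, against -0.51 and -0.17 in hira protoplasts, with a change of -2.06 (SE 0.72, adjusted p = 0.11) in hira and 0.047 in WT. UGT72E2 changed by -0.37 in hira and 0.23 in WT with overlapping groups, and UGT72B3 ranged over 0.08.

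UGT84A1, UGT84A3 and UGT84A4 form glucose esters of hydroxycinnamic acids. UGT84A3 was at 1.28 (SE 0.82, adjusted p = 0.34) in hira and 1.18 (SE 0.82, adjusted p = 0.33) in WT, and UGT84A4 at -0.86 (SE 0.53, adjusted p = 0.328) and 1.55 (SE 0.53, adjusted p = 0.101), with a difference between the responses of -2.41 (SE 0.76, adjusted p = 0.13). UGT84A1 was raised on 1 hira root array alone, at 1.47 and -0.02, and changed by -0.76 in hira and 0.015 in WT. The flavonol glycosyltransferases of family 78, UGT78D1 (rhamnose), UGT78D2 (glucose) and UGT78D3 (arabinose), changed by -0.86, 0.26 and -0.025 in hira and by -1.30, -0.66 and 0.087 in WT. The hira root arrays of UGT78D2 lay far apart, at 0.74 and -1.27. UGT74B1, which adds the sugar in glucosinolate synthesis, was at -1.42 (SE 0.75, adjusted p = 0.252) in hira and -0.82 (SE 0.75, adjusted p = 0.441) in WT.

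The members that fell in both genotypes were UGT80B1 and UGT88A1. UGT80B1 (AT1G43620), a sterol glucosyltransferase, had -0.49 and -0.48 in hira protoplasts, against 0.48 and 1.06 in hira roots, and -0.56 and -0.56 in WT protoplasts, against 0.93 and 0.89 in WT roots. The 4 protoplast arrays were almost equal and below all root arrays, with changes of -1.26 (SE 0.19, adjusted p = 0.0132) in hira and -1.47 (SE 0.19, adjusted p = 0.00835) in WT. Centred values do not show whether such equal values sit at the lower limit of the signal. UGT88A1 (AT3G16520) fell by less, at -0.31 (SE 0.072, adjusted p = 0.041) in hira and -0.64 (SE 0.072, adjusted p = 0.00578) in WT, and was also lower in hira roots than in WT roots at -0.40 (SE 0.072, adjusted p = 0.0396).

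Of families 85 and 87, UGT85A4 and UGT87A2 rose in both genotypes. UGT87A2 (AT2G30140), known in Arabidopsis for an effect on flowering time, had 0.37 and 0.60 in hira protoplasts, against -1.66 and -2.33 in hira roots. In WT it had 0.50 and 0.75 in protoplasts, against -0.37 and -0.42 in roots. Hira roots were lower than WT roots, at -1.60 (SE 0.24, adjusted p = 0.0292), the protoplasts overlapped, and the rise was 2.48 (SE 0.24, adjusted p = 0.00483) in hira and 1.02 (SE 0.24, adjusted p = 0.0422) in WT. UGT85A4 (AT1G78270) had 2.01 and 1.44 in hira protoplasts, against -0.46 and -0.40 in hira roots, and 1.18 and 0.40 in WT protoplasts, against -0.63 and -0.60 in WT roots. Its rise was 2.16 (SE 0.31, adjusted p = 0.0118) in hira and 1.41 (SE 0.31, adjusted p = 0.0342) in WT, with no overlap. The other 4 genes of family 85 were not called, with changes of 0.56 in hira and 0.41 in WT for UGT85A2, 0.40 and 0.40 for UGT85A3, -0.0068 and 0.049 for UGT85A5, and 0.35 and -0.061 for UGT85A7.

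**Figure D4:**
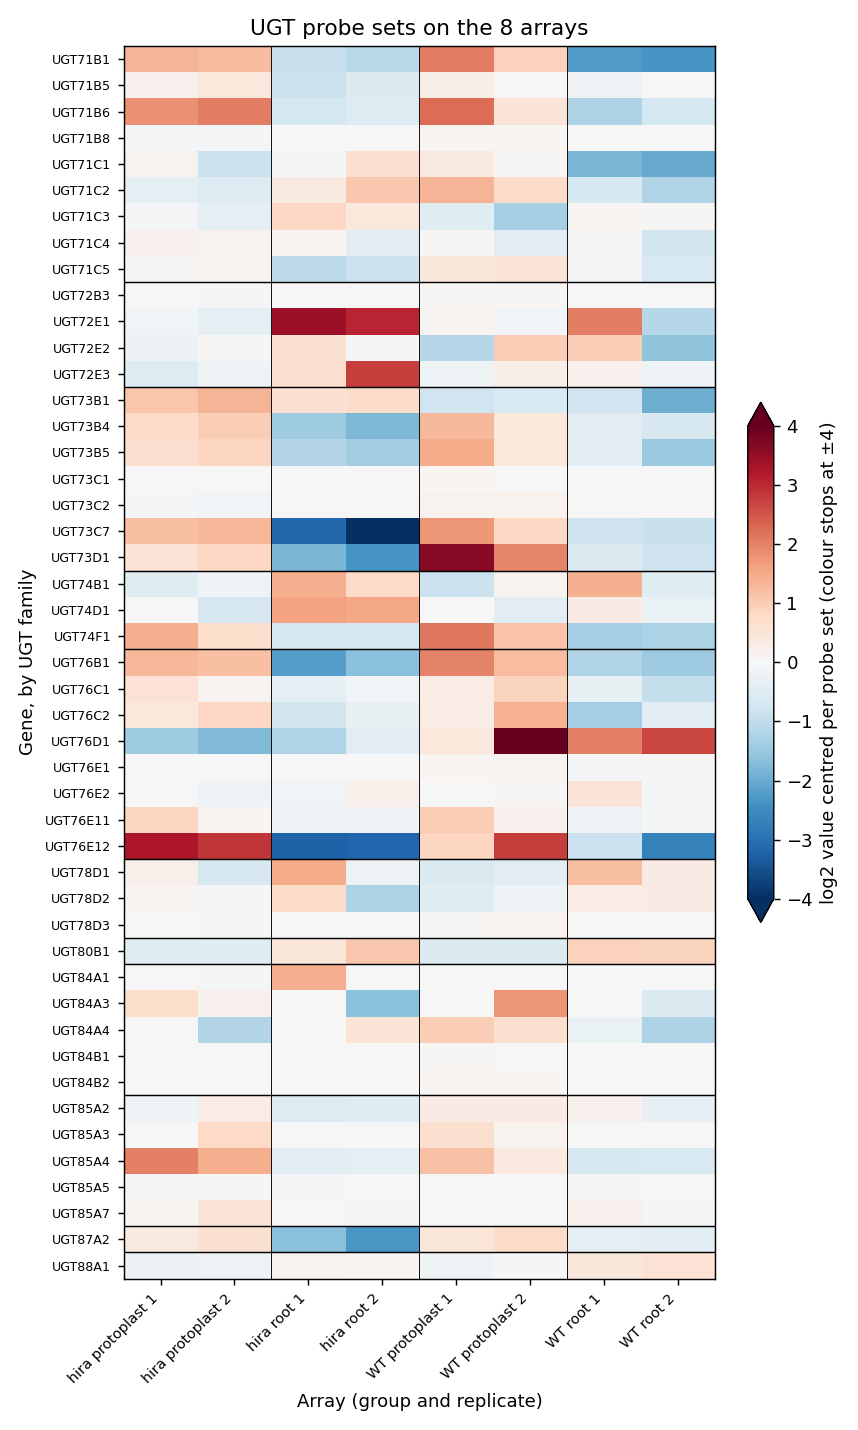
Centred log2 values of all 47 UGT probe sets (rows, ordered by family, with lines between families) on the 8 arrays (columns, grouped as hira protoplast, hira root, WT protoplast and WT root). Red is above and blue below a gene's own median, and colour stops at 4 in either direction. Rows of UGT76E12, UGT73C7 and UGT76B1 change colour between protoplasts and roots, and 9 rows are nearly white, with a range under 0.3 over the 8 arrays.

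The 9 members with a range under 0.3 over all arrays were UGT71B8, UGT72B3, UGT73C1, UGT73C2, UGT76E1, UGT78D3, UGT84B1, UGT84B2 and UGT85A5, which is 19.1% of the members beside 24.4% of all probe sets. Whether they were silent everywhere or steadily expressed cannot be told apart from centred values. For 8 of them no comparison was called, and the call of UGT73C2, -0.20 (SE 0.034, adjusted p = 0.0427) in hira against WT protoplasts, lies within that narrow range.

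In hira roots against WT roots, UGT71C1 and UGT73B1 were higher and UGT73C7, UGT87A2 and UGT88A1 lower, 5 of 47 members, or 10.6%, a share close to the 9.19% of all probe sets called, 4.91% higher and 4.28% lower. Arrays did not overlap for 11 members that were higher and 11 that were lower in hira roots, beside 23.5% and 23.9% of all probe sets. Quantile normalization left UGT73C7 as the only call, and centring on the least variable probe sets ended the call of UGT73B1. In hira protoplasts against WT protoplasts UGT73C2 was the only member called by limma, or 2.13%, beside 8.29% of all probe sets, 5.05% higher and 3.24% lower; 9 members had an unadjusted p under 0.05, where 30.8% of all did. Hira protoplasts lay above WT protoplasts without overlap for 8 members and below for 17, beside 24.3% and 51.4% of all probe sets. The call of UGT73C2 held without either WT root array, and was lost when any 1 of the other 6 was left out and when arrays were centred on the least variable probe sets. Quantile normalization gave UGT73B1 higher and UGT71C2 lower in its place. With the 4 root arrays alone 0 of all probe sets were called, so that fit could not keep any of the 5 calls in roots. These calls were also lost without either hira protoplast array, where calls over all probe sets fell as well. UGT73C7 remained called without either WT protoplast array or hira root replicate 1, and was lost without either WT root array (adjusted p up to 0.139 over the alternatives) or hira root replicate 2. UGT73B1 remained called without either WT root array, UGT88A1 without WT root replicate 1 and UGT87A2 without either hira root array, and UGT71C1 was lost when any 1 of the 8 was left out. These comparisons share arrays with the protoplast against root comparisons, so their values are not independent of those above.

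Neighbouring UGT genes did not always change together. Of the members, 24 lie in 10 groups with no other protein-coding gene between them. In hira UGT73B4 with UGT73B5 and UGT73D1 with UGT73C7 were called throughout, 1 group had some called and 7 had none. In WT 2 groups had every member called, UGT71C1 with UGT71C2 and UGT73D1 with UGT73C7, 2 had some called and 6 had none. In the group of UGT71C5, UGT71C4 and UGT71C3, UGT71C5 rose by 1.02 in hira and 0.82 in WT, while UGT71C3 stood at -0.82 and -0.96. All 47 probe sets are of the type that Affymetrix designed for a single transcript, although cross-hybridisation between close relatives was not tested.

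Calls were lost when single arrays were left out, and some members without a call in the main fit gained one. The lists of lost calls do not name such gains, and members described above as not called had no call in the main fit. In hira 16 members were called with all arrays. Fitting only the 4 hira arrays kept 12 of these and lost UGT71B5, UGT74F1, UGT80B1 and UGT88A1. It gained UGT72E1, which made 13 calls. Over all probe sets the main fit called 5505 and the smaller fit 5281. When any hira array was left out, the calls in hira became fewer among the members and over all probe sets alike. Whether the UGT calls were more sensitive to this than others was not tested. UGT73C7, UGT76B1 and UGT87A2 stayed called under all 14 alternatives. UGT73B4 and UGT76E12 were lost without either hira protoplast array and under no other alternative, with adjusted p up to 0.0664 and 0.0652. Without hira root replicate 1 the lost calls were UGT71B1, UGT71B5, UGT71B6, UGT71C5, UGT73B5, UGT73D1, UGT74D1, UGT74F1, UGT85A4 and UGT88A1, and without replicate 2 the same except UGT71B5. Without hira protoplast replicate 1 they were UGT71B1, UGT71B5, UGT71B6, UGT71C5, UGT73B4, UGT73B5, UGT73D1, UGT74F1, UGT76E12, UGT80B1, UGT85A4 and UGT88A1, and without replicate 2 the same, with UGT74D1 in place of UGT85A4. Without either WT root array UGT71B6, UGT73D1 and UGT74F1 were lost, and without either WT protoplast array UGT88A1.

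In WT the count of members called was 15 of 47 with all arrays, beside 5817 of all 22746 probe sets. With the WT arrays alone it was 4, beside 2331, so the share of UGTs called was then not above that of all probe sets. The calls of UGT71C1, UGT76B1, UGT80B1 and UGT87A2 remained there. Leaving out any 1 array lowered the calls in WT among the members and over all probe sets. Leaving out WT root replicate 1 ended the WT calls of UGT71B6, UGT71C1, UGT73B4, UGT73C7, UGT73D1, UGT85A4 and UGT87A2. Without WT root replicate 2 those of UGT71B6, UGT71C1, UGT71C2, UGT73B4, UGT73C7, UGT73D1, UGT76E12, UGT85A4 and UGT87A2 were lost, and without WT protoplast replicate 1 those of UGT71C1, UGT71C2, UGT71C5, UGT73B4, UGT73C7, UGT85A4 and UGT87A2. Without WT protoplast replicate 2 the lost calls were UGT71C1, UGT71C5, UGT76E12 and UGT87A2. Without either hira root array they were UGT71B6, UGT71C5, UGT73B4, UGT76E12 and UGT85A4, and without either hira protoplast array UGT71B6, UGT71C2, UGT71C5, UGT73B4, UGT73C7, UGT76E12, UGT85A4 and UGT87A2. UGT76B1 and UGT80B1 stayed called under all 14 alternatives, and UGT71B1, UGT74F1 and UGT88A1 were lost with the WT arrays alone and under none of the other 13.

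Genes around the UGTs were described from 6 lists. A gene counts as measured if the annotation used names it alone for a probe set. Genes not measured may lie on probe sets without a gene name or shared by several genes. Of 24 genes that supply UDP-sugars 1 was measured, USP, a UDP-sugar pyrophosphorylase. It changed by 0.21 (SE 0.22, adjusted p = 0.564) in hira and rose by 2.03 (SE 0.22, adjusted p = 0.0052) in WT, with a difference between the responses of -1.82 (SE 0.31, adjusted p = 0.0493). The detoxification list of 24 genes took in every gene with a GSTU or GSTF symbol that had a probe set of its own, 13 in all. None of its other genes had one in the annotation used, so 13 of 24 is no measure of coverage. In hira 1 of the 13 rose and 6 fell, with a median of -1.52, while in WT 4 rose and 1 fell, with a median of 0.088. Of all probe sets 12.0% rose and 12.2% fell in hira (median -0.02), and 11.7% rose and 13.9% fell in WT (median 0.034). In hira against WT roots 3 of the 13 were higher and 0 lower, beside 4.91% and 4.28% of all probe sets. The median there was 1.26, beside -0.004 over all probe sets. In hira against WT protoplasts 0 were higher and 2 lower, beside 5.05% and 3.24% of all probe sets. The median there was -0.08, beside -0.054 over all probe sets. GSTU16 rose in both genotypes, by 2.77 (SE 0.49, adjusted p = 0.0197) in hira and 1.95 (SE 0.49, adjusted p = 0.047) in WT. Among the called genes the largest falls in hira were GSTU23 at -3.45 (SE 0.62, adjusted p = 0.0201) and ATGSTF13 at -3.01 (SE 0.53, adjusted p = 0.0195), while GSTU20, at -3.82 (SE 1.85, adjusted p = 0.219), was not called. In WT GSTU28 rose by 1.59 and GSTU22 changed by -1.21 (adjusted p = 0.0231 and 0.0482). The responses differed for GSTU25, at -2.34 (SE 0.20, adjusted p = 0.0164), and for GSTU21, at -0.58 (SE 0.084, adjusted p = 0.0387). No test set the glutathione transferases against the UGTs.

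Of 28 genes of hormone synthesis, conjugation and breakdown 6 were measured. In hira 2 rose, GH3.3, which conjugates auxin to amino acids, at 8.82 (SE 1.24, adjusted p = 0.0109), and AT1G14130 (DAO1), an auxin oxidase, at 1.97 (SE 0.42, adjusted p = 0.0314). In WT they were at 1.84 (SE 1.24, adjusted p = 0.32) and -0.13 (SE 0.42, adjusted p = 0.833), and neither difference of the responses was called. GH3.3 was lower in hira than in WT roots, at -6.52 (SE 1.24, adjusted p = 0.0459). Between hira and WT protoplasts it differed by 0.46 (SE 1.24, adjusted p = 0.83). AT1G14120 (DAO2), a close relative of DAO1, stood at -5.38 (SE 1.47, adjusted p = 0.0601) in hira and fell in WT, at -6.49 (SE 1.47, adjusted p = 0.0355). The list's median was 1.12 in hira and 0.28 in WT, beside -0.02 and 0.034 over all probe sets. Of 12 flavonoid genes 3 were measured and CHIL, a helper protein of chalcone isomerase, fell in hira, at -4.23 (SE 0.69, adjusted p = 0.0157), with -1.72 (SE 0.69, adjusted p = 0.139) in WT. Neither of the 2 measured genes among 17 of phenylpropanoid and coumarin synthesis was called. None of 19 glucosinolate genes beside the UGTs had a probe set of its own in the annotation used.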

How the data were processed

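Total RNA from 8 samples was hybridised to Affymetrix arrays after biotin labelling. The authors made the deposited log2 values with GCRMA (version not given in the sources used here), per the submitters' processing notes. That they are log2 and centred was read from the values: a probe set spans up to 11.23, more than the 11.09 of natural logs of a 16-bit scan, and its median over the arrays is 0 within 5e-07. No level, signal over background or low-value filter can be had from such values. Precision is limited by how few arrays there are, and 0 columns were left unused.

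Of 22810 probe sets 64 controls were set aside. The annotation gave 1 gene for 13513 probe sets, several for 503 and none for the others, and 13436 matched the RefSeq table. No coordinates are given, and no sequences were used here. Groups and replicate numbers came from sample titles. The means of the 4 groups were fitted with limma 3.58.1 (lmFit, eBayes; R 4.3.3; 4 residual and 0.742 prior degrees of freedom) for 5 comparisons, and the fit was tested on simulated data. Alternatives were quantile normalization, centring on the 25% least variable probe sets, an SD filter of 0.2, eBayes with trend and robust, the replicate block, a comparison's own 4 arrays, and each of the 8 arrays left out. Every member is named, and array values are printed for those called with a change of at least 1 (17 genes), and, chosen after values were seen, for UGT72E1, UGT76D1 and some arrays of others. From each list up to 2 called genes per direction are named. Members and lists were chosen with earlier results of these data known.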

Additional observations from a re-analysis of the deposited data

Results flagged for a closer look

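The response of UGT71C2 to protoplast formation differed between the genotypes by -3.15 (SE 0.51, adjusted p = 0.0471) in the interaction term of the limma fit, hira minus WT. Its change was -1.17 in hira, lower on both protoplast arrays, and 1.98 in WT, higher on both. Its neighbour UGT71C1 had a difference of -2.80 with adjusted p = 0.0697, which did not pass.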

How the results depend on the processing

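Of 530 checks of the 38 single-gene calls, 329 stayed called, 201 lost significance and 0 changed sign. In many of these checks the sign could not change. The SD filter, trend and robust, the replicate block and a comparison's own arrays leave the estimate as it was. Leaving out an array of a group outside the comparison does the same, so the lack of sign changes says little about stability. Leaving out each array in turn gave 4 to 15 UGT calls in hira protoplasts against roots (16 with all arrays), 7 to 12 in WT protoplasts against roots (15), 0 to 4 in hira against WT roots (5), 0 to 2 in hira against WT protoplasts (1) and 0 to 4 in the difference of the responses (1). With a comparison's own 4 arrays there were 4 calls in WT protoplasts against roots and 0 in hira against WT roots (limma). Over all probe sets these fits called 2331 and 0. In hira against WT roots quantile normalization gave 1 call and the replicate block 2, beside 1332 and 1030 over all probe sets. In hira against WT protoplasts quantile normalization gave 2, beside 2110 over all probe sets, and centring on the least variable 0, beside 1643. The SD filter gave 2 there, beside 1473 of the probe sets it kept, and trend and robust 6, beside 4773. The replicate block gave 0, beside 789. In the difference of the responses centring gave 0, the SD filter 3, trend and robust 0, and the replicate block 0. Over all probe sets centring gave 1011 there, the SD filter 1403 and trend and robust 610. The replicate block gave 15 calls in hira and 10 in WT protoplasts against roots, beside 4527 and 4887 over all probe sets. Both UGT counts include UGT76C2, which had no call in the main fit. Same-numbered samples did not deviate together (r = -0.096 to 0.048 between groups), so they share only a number. Where a setting with 2 arrays in each group gave 0 limma calls, between 6 and 15 members had an unadjusted p under 0.05. The share of all probe sets at that limit was not taken in these settings, so the counts say nothing particular to UGTs. In the main fit that share was 30.8% in hira against WT protoplasts. Over all probe sets the block lowered the calls in the difference to 302, against 1108. A fit of the own arrays could not be made for the difference, which uses all 8. The SD filter kept 37 of 47 members. The cause of these shifts was not tested. Signal over background cannot be assessed.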

Other observations

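Probe sets shared by several genes were kept out of the members, and 3 of them include a UGT. That of UGT73B2 and UGT73B3 changed by 3.24 (SE 0.34, adjusted p = 0.00537) in hira protoplasts against hira roots and by 0.59 (SE 0.34, adjusted p = 0.256) in WT protoplasts against WT roots. It was lower in hira roots than in WT roots at -2.12 (SE 0.34, adjusted p = 0.0318), and the difference of the responses was 2.65 (SE 0.48, adjusted p = 0.0554). That of AT1G73885 and UGT89B1, a flavonol glycosyltransferase gene, rose by 3.90 (SE 0.47, adjusted p = 0.00755) in hira and by 2.45 (SE 0.47, adjusted p = 0.0226) in WT. That of UGT71D1 and AT2G29710 changed by -2.64 (SE 0.29, adjusted p = 0.00593) in hira and by -1.92 (SE 0.29, adjusted p = 0.0119) in WT. Which gene of each set gave the signal cannot be told apart.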
